A study of Mus musculus with 22 samples.

Results

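The 5mC level of 100 kb bins was compared between olfactory bulb and cortex of the mouse. The members are the autosomal bins with a level above 0 and below 1 in all 5 oxBS-seq libraries of these tissues, 24013 of the 24618 autosomal bins and of the 26327 bins listed for the whole series. The 605 autosomal bins left out comprised 587 bins at 0 in every library and 18 at 0 or 1 in some library only, and 586 of the 587 hold no sequenced base in the reference. The series profiled 5mC and 5hmC, its oxidized form, in cortex, olfactory bulb and cerebellum. Cortex had 3 libraries and olfactory bulb 2, each from the whole region of C57BL/6 mice at 8 weeks of age. The mice were female, and the hippocampus had been removed from the cortex. No mutant allele, transgene or treatment entered either group, so the tissue was the only labelled difference, and the replicates are described as independent mice in wording that also calls them technical, so p-values measure the spread between these libraries. Both groups are mixtures of neurons and glia, and a change within a cell type cannot be told apart from a change in the share of that cell type. No RNA was analysed here, so the tissue labels could not be checked against marker expression.

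In mammals 5mC sits mainly at CpG dinucleotides, where DNA methyltransferases place it, and TET enzymes can oxidize it to 5hmC, which is abundant in neurons. In oxBS-seq the 5hmC is oxidized before bisulfite treatment, so that only 5mC is still read as C. In neurons, low 5mC along a gene often goes with its expression. The most common neurons of the olfactory bulb are GABAergic granule and periglomerular interneurons, whereas excitatory projection neurons prevail in cortex.

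A bin covers far more DNA than a promoter, so the deposited levels do not resolve single sites. To show the DNA behind a bin, the 250 bases before a start site are given for the first 2 named genes in each direction that have a RefSeq promoter entry (GRCm38.p6) inside their stretch of changed bins. Of the 24 loci chosen, 11 have an entry. CpG dinucleotides, the sites at which 5mC is read, are in capitals, and the strand is that of the gene.
Meis2: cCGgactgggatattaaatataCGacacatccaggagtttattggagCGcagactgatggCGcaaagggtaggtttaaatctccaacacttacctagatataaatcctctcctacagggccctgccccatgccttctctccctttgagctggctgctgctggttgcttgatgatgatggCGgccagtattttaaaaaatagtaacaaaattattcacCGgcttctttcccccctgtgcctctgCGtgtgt
Prkca: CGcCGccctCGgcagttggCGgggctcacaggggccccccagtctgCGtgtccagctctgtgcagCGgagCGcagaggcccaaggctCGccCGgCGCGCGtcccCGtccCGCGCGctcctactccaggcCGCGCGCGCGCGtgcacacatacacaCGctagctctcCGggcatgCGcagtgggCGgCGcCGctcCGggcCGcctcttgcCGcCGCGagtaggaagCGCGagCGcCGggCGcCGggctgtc
Sv2b: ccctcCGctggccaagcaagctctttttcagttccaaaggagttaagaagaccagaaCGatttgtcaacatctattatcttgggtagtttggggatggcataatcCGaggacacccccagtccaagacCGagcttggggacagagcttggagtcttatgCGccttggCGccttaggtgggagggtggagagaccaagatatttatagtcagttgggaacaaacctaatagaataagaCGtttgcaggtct
Phlpp1: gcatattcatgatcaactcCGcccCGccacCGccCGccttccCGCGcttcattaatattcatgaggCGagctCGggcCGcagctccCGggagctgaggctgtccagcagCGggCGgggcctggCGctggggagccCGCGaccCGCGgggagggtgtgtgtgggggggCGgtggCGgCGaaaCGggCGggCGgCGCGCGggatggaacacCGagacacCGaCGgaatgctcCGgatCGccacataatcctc

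The Meis2 stretch (chr2:116064620-116064869, minus strand) holds 7 CpG sites, a number reached by 46.3% of the 32851 promoters of that table. Its 100 kb bin had levels of 0.458, 0.428 and 0.421 in cortex and 0.222 and 0.189 in olfactory bulb, a fall of 0.230 with no overlap. The Prkca stretch (chr11:108343889-108344138, minus strand) holds 39 CpG sites, a number reached by 1.56% of promoters. The bin around it had levels of 0.607, 0.615 and 0.568 in cortex and 0.515 and 0.511 in olfactory bulb, again lower in both bulb libraries. The Sv2b stretch (chr7:75309263-75309512, minus strand) holds 7 CpG sites too and lies in a bin with levels of 0.609, 0.634 and 0.581 in cortex and 0.705 and 0.682 in olfactory bulb. The Phlpp1 stretch (chr1:106171619-106171868, plus strand) holds 31 CpG sites, a number reached by 5.19% of promoters, and its bin had levels of 0.499, 0.538 and 0.545 in cortex and 0.658 and 0.664 in olfactory bulb. The median over all promoters of the table was 6 CpG sites. The libraries of the tissues overlapped in none of the 4 bins, but this was fixed in advance, since changed bins were chosen without overlap.

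Over all bins, olfactory bulb carried more 5mC than cortex. The mean level was 0.681, 0.684 and 0.657 in the cortex libraries and 0.707 and 0.703 in the olfactory bulb libraries, which is 0.674 ± 0.0147 (SD, n = 3) against 0.705 ± 0.00296 (SD, n = 2). Both bulb libraries lay above every cortex library, and cortex replicate 3 stood below the other 2. The difference was 0.0310, or 0.0225 without cortex replicate 3, and an exact permutation test (two-sided) could not reach less than its p of 0.1 with so few libraries. The bulb mean exceeded the cortex mean in 88.4% of bins, and the median difference was 0.0319, or 0.23 as log2(level/(1 − level)), the scale on which bins were tested. Every chromosome shared this shift, with median differences from 0.0275 on chromosome 18 to 0.0364 on chromosome 1. Across bins, Pearson's r was between 0.950 and 0.970 for libraries of the same tissue and between 0.892 and 0.919 for libraries of different tissues, so the tissues also differed in pattern. The deposited values carry no read counts, so the depth is unknown and the spread between libraries is the only error given.

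**Figure D1:**
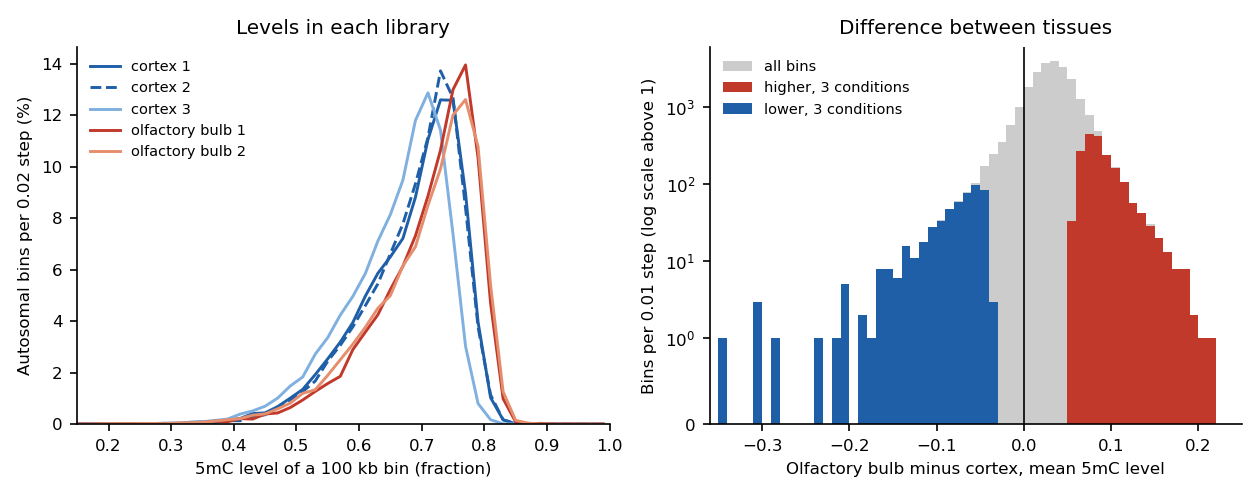
Left, percentage of the 24013 bins in each 0.02 step of 5mC level for the 3 cortex libraries (blue) and the 2 olfactory bulb libraries (red). Right, number of bins in each 0.01 step of olfactory bulb minus cortex on an axis that is logarithmic above 1, with bins past the 3 conditions of the text drawn over the others in blue (lower) and red (higher). The bulb curves lie to the right of the cortex curves, the differences centre on 0.0319, and the falls reach further (to -0.346) than the rises (to 0.211).

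In limma, 9157 bins (38.1% of those tested) were higher in olfactory bulb and 525 (2.19%) lower at an adjusted p under 0.05. The shift of whole libraries enters these counts. With each library centred on its own median, 1851 bins (7.71%) were higher and 2218 (9.24%) lower, so the balance of the directions turned. Both bulb libraries lay above all 3 cortex libraries in 14948 bins (62.2%) and below them in 1011 (4.21%). A bin is called changed in the following only if it passed 3 conditions, which are an adjusted p under 0.05 on the levels as deposited, the same on the centred levels in the same direction, and no overlap between the libraries of the tissues. These were met by 1851 bins that rose (7.71%) and 510 that fell (2.12%). The mean level fell by 0.1 or more in 110 bins and rose by 0.1 or more in 453, and of these 31 and 53 moved by 0.15 or more. The median difference was 0.0841 in the bins that rose and -0.0688 in those that fell, and on the levels as deposited falls were the larger only at the extreme. These differences include the shift of whole libraries. Relative to the median difference over all bins, 263 bins lay 0.1 or more below it and 115 lay 0.1 or more above it.

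The test rests on a spread that limma shared across bins. The standard error was 0.118 in the bin with the lowest and 0.119 in the median bin on the levels as deposited, and with each bin's own spread alone only 34 bins were higher and 4 lower, or 59 and 127 after centring. Leaving out bulb replicate 1 or 2 lowered the 9157 rises to 2428 or 3209 and the 525 falls to 259 or 196, and leaving out cortex replicate 3 raised the falls to 877. After centring, the 1851 rises became 1215 without cortex replicate 1, 945 without bulb replicate 1 and 987 without bulb replicate 2, and the 2218 falls became 1263 without bulb replicate 2.

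Changed bins clustered along chromosomes and in genes. The difference of a bin correlated with that of its neighbour with r = 0.537, given as a description, since neighbouring bins share genes and base composition. The 510 falling bins formed 320 stretches, of which 10 held 5 or more bins, and the 1851 rising bins formed 1186, of which 42 held 5 or more. Genes covered a median of 97.2% of a falling bin and 78.6% of a rising bin, against 48.7% over all bins. Bins wholly covered by genes made up 46.5% of the falls and 35.2% of the rises, against 17.6% of all bins, and bins wholly inside a protein-coding gene of 300 kb or more made up 31.2% and 24.2%, against 10.7%. Falling bins held a median of 983 CpG sites and rising bins 707, against 776 over all bins.

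The differences were more spread in bins covered by genes. Bins without a gene had a mean level of 0.732 ± 0.0143 in cortex and 0.767 ± 0.000873 in olfactory bulb, and bins wholly covered had 0.664 ± 0.0135 and 0.695 ± 0.00330 (SD, n = 3 and 2). Relative to the mean over all bins of the same library, no difference between the tissues passed the test in any of the 4 coverage classes, with contrasts from -0.00136 for bins under 50% covered to 0.00343 for bins without a gene (two-sided exact permutation test, adjusted p from 0.667 to 0.900), a test that cannot go below p = 0.1 with 3 libraries against 2. The SD of the differences over bins was 0.0213 without genes and 0.0472 in bins wholly covered, in which 15.4% of bins were higher and 16.1% lower after centring, against 6.82% and 3.96% of bins without a gene. When bins were ordered by CpG sites, the mean difference went from 0.0373 in the fifth with the fewest sites to 0.0275 in the fifth with the most, and the share of bins lower after centring from 3.43% to 13.2%. These properties overlap, and their part in the difference was not tested.

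Of the 12 loci with the largest falls, 11 are described here, and 5 of these lead with a gene for a homeobox or zinc finger transcription factor, among them 3 of the MEIS and PBX families, homeodomain partners that bind DNA together. Pbx3 had levels of 0.672, 0.693 and 0.613 in cortex and 0.371 and 0.331 in olfactory bulb in chr2:34200001-34300000, a bin inside its introns and exons (0.669% exon), and the log2 ratio changed by -1.84 ± 0.122 (SE, adjusted p = 2.55e-27). Meis2, needed for the interneurons that migrate to the olfactory bulb, had 0.642, 0.621 and 0.618 in cortex and 0.303 and 0.340 in olfactory bulb in chr2:115900001-116000000, with a change of -1.83 ± 0.119 (SE, adjusted p = 1.20e-27). In both bins the higher bulb library was far below the lowest cortex library, and the means differed by -0.308 and -0.305. Meis1 had 0.680, 0.705 and 0.671 in cortex and 0.534 and 0.501 in olfactory bulb in chr11:18900001-19000000. The fall of Meis1 (0.168) was smaller than those of Pbx3 and Meis2. That no bulb library reached a cortex library in these 3 bins was a condition of their choice. The mean over 2 cerebellum libraries was 0.471 in the Meis1 bin, below both tissues, and 0.782 in the Meis2 bin, above both.

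Tshz1, a zinc finger gene required for granule and periglomerular interneurons of the bulb, showed the largest fall of all bins. In chr18:84000001-84100000, which holds its start site and part of Zadh2, the level was 0.570, 0.575 and 0.556 in cortex and 0.240 and 0.201 in olfactory bulb, and the log2 ratio changed by -2.22 ± 0.119 (SE, adjusted p = 4.58e-35). The bin with Dlx5 and Dlx6, adjacent homeobox genes of forebrain GABAergic neurons, had 0.391, 0.368 and 0.378 in cortex and 0.207 and 0.194 in olfactory bulb in chr6:6800001-6900000. This bin was already among the less methylated in cortex and had the lowest bulb level of the 12, 0.200 ± 0.00888 (SD, n = 2). Auts2, a gene linked to neurodevelopmental disorders whose product joins a Polycomb complex, had 0.594, 0.634 and 0.595 in cortex and 0.416 and 0.389 in olfactory bulb in chr5:132300001-132400000. Its bin was the lowest point of a stretch of 10 falling bins, chr5:131700001-132700000, which averaged 0.642 ± 0.0154 (SD, n = 3) in cortex and 0.527 ± 0.0158 (SD, n = 2) in olfactory bulb. Zfp385b, which encodes a zinc finger protein, had 0.689, 0.695 and 0.667 in cortex and 0.531 and 0.501 in olfactory bulb in chr2:77600001-77700000.

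The remaining 4 loci lead with genes of other kinds. Pcbp3, for an RNA-binding protein of the poly(C) family, came next after Tshz1 and Pbx3 with 0.678, 0.681 and 0.635 in cortex and 0.379 and 0.340 in olfactory bulb in chr10:76900001-77000000, where its start site lies, and changed by -1.83 ± 0.120 (SE, adjusted p = 1.65e-27). Fam171b had 0.599, 0.616 and 0.601 in cortex and 0.415 and 0.420 in olfactory bulb in chr2:83800001-83900000, a single changed bin. Prkca, for protein kinase C alpha, had 0.676, 0.664 and 0.669 in cortex and 0.517 and 0.484 in olfactory bulb in chr11:107900001-108000000, which it shares with Cacng5. Each of these falls exceeded the range of either tissue, and the smallest gap between the lowest cortex and the highest bulb library was that of the Prkca bin. Ppm1e, for a serine/threonine phosphatase, had 0.588, 0.580 and 0.569 in cortex and 0.412 and 0.409 in olfactory bulb in chr11:87200001-87300000. The leading bins of the 12 falls held between 612 and 1830 CpG sites, exons of the named gene took up at most 7.46% of them, and 4 of the 12 hold its start site. In 10 of the 12 the cerebellum mean (2 libraries) was above both tissues, and in 1 below both. Cerebellum was also the higher over all bins, with a median of 0.757. The library medians were 0.675 to 0.702 in cortex and 0.725 to 0.728 in olfactory bulb. The share of all bins with cerebellum above both tissues was not counted, so whether the 10 are particular to these loci was not tested.

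**Figure D2:**
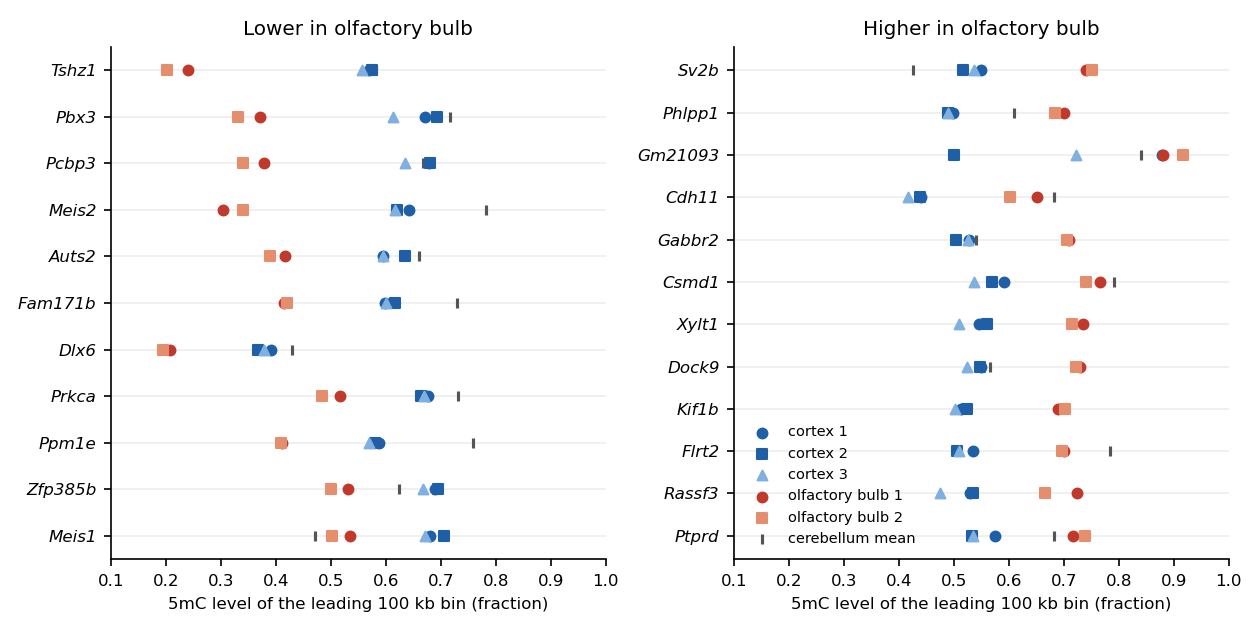
5mC level (fraction) in the leading 100 kb bin of 11 of the 12 loci that fell most (left) and the 12 that rose most (right), with 1 symbol per library for cortex (blue) and olfactory bulb (red) and a grey bar for the mean of 2 cerebellum libraries. The bulb libraries lie apart from the cortex libraries in every bin, as the choice of bins required. In the Gm21093 bin the first cortex library (0.879) is hidden behind the first bulb library (0.880).

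The 12 largest rises lay at genes of several kinds. Sv2b, for a glycoprotein of synaptic vesicles, led with levels of 0.550, 0.517 and 0.537 in cortex and 0.741 and 0.751 in olfactory bulb in chr7:75200001-75300000 and a log2 ratio change of 1.35 ± 0.118 (SE, adjusted p = 3.10e-18). Gabbr2, a subunit of the metabotropic GABA-B receptor, had 0.527, 0.503 and 0.526 in cortex and 0.709 and 0.705 in olfactory bulb in chr4:46800001-46900000, with a change of 1.16 ± 0.118 (SE, adjusted p = 1.35e-14). Kif1b, for a kinesin that carries axonal cargo, had 0.513, 0.524 and 0.501 in cortex and 0.689 and 0.703 in olfactory bulb in chr4:149200001-149300000. No cortex library was above 0.550 and no bulb library below 0.689 in any of these 3 bins. In cerebellum the Sv2b bin had a mean of 0.425, the only 1 of the 12 rises with cerebellum below both tissues.

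Among genes for adhesion molecules, Cdh11, a classical cadherin, had 0.439, 0.438 and 0.417 in cortex and 0.651 and 0.602 in olfactory bulb in chr8:102700001-102800000, the lowest cortex levels of the 12 rises. Flrt2, for a leucine-rich repeat protein of axon guidance, had 0.534, 0.505 and 0.510 in cortex and 0.700 and 0.697 in olfactory bulb in chr12:95700001-95800000. Csmd1, for a large membrane protein with complement control domains, had 0.591, 0.570 and 0.536 in cortex and 0.766 and 0.741 in olfactory bulb in chr8:17300001-17400000. The cerebellum means of all 3 bins were above both tissues (0.682, 0.784 and 0.791). Ptprd, a receptor-type tyrosine phosphatase that organises synapses, had 0.575, 0.533 and 0.534 in cortex and 0.717 and 0.739 in olfactory bulb in chr4:76200001-76300000, within the longest stretch of the genome, 26 rising bins, chr4:75900001-78500000, with a mean of 0.628 ± 0.0121 (SD, n = 3) in cortex and 0.749 ± 0.00191 (SD, n = 2) in olfactory bulb. The stretch over Csmd1 held 20 bins, chr8:15800001-17800000, and went from 0.612 ± 0.0102 to 0.731 ± 0.00143. Further stretches of 10 or more rising bins covered Lrrc4c (13 bins), Grm7 (11), Rims1 (10) and Nrg3 (10), all genes of synapses or of neuregulin signalling.

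The signalling genes were Phlpp1, Dock9 and Rassf3. Phlpp1, for a phosphatase that acts on the kinase Akt, had 0.498, 0.488 and 0.489 in cortex and 0.700 and 0.684 in olfactory bulb in chr1:106200001-106300000, the second largest rise. Dock9, an activator of the GTPase Cdc42, had 0.549, 0.547 and 0.524 in cortex and 0.730 and 0.721 in olfactory bulb in chr14:121600001-121700000. Rassf3, of the Ras-association domain family, had 0.529, 0.534 and 0.475 in cortex and 0.723 and 0.666 in olfactory bulb in chr10:121400001-121500000. The Rassf3 libraries were the more spread, with an SD of 0.0325 in cortex and 0.0403 in olfactory bulb. Lack of overlap was a condition for naming any of these bins. Xylt1, whose enzyme starts glycosaminoglycan chains on proteoglycans, had 0.545, 0.560 and 0.509 in cortex and 0.735 and 0.715 in olfactory bulb in chr7:117400001-117500000. Gm21093, a predicted gene, covers 1.71% of the bin chr4:42000001-42100000, which had levels of 0.879, 0.500 and 0.722 in cortex and 0.880 and 0.917 in olfactory bulb. There the cortex SD of 0.190 was as large as the rise of 0.198, the first cortex library came within the rounding of the first bulb library, the adjusted p was 0.0497 after centring, and limma's robust option gave an adjusted p of 0.287. In the fit with each bin's own spread all 24 leading bins were above an adjusted p of 0.05, the lowest at 0.0532. The unadjusted p of that fit was under 0.05 in 23 of the 24 (12 falls and 11 rises, all but Gm21093). These bins were chosen for large differences without overlap in the same libraries, so the unadjusted p gives no support.

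**Figure D3:**
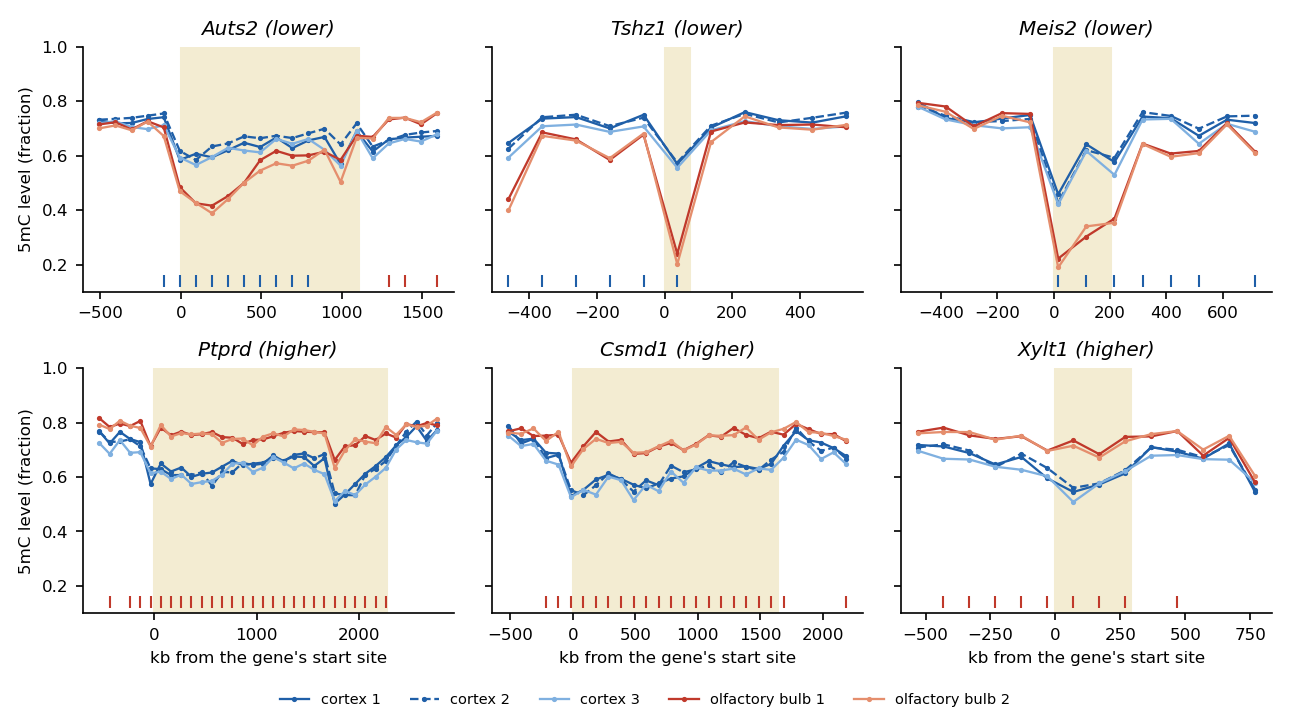
5mC level (fraction) of 100 kb bins against the distance of the bin's centre from the gene's start site, in kb, for the 3 falling and 3 rising named loci with the longest stretches of changed bins (Prkca, not drawn, has a stretch of 6 bins like Tshz1 and Meis2, which fell more), with 1 line per library (cortex blue, olfactory bulb red). The gene is shaded, and ticks mark bins past the 3 conditions (blue lower, red higher): the bulb lines drop in the first part of Auts2 and over Tshz1 and Meis2, and the cortex lines lie below the bulb lines along the whole of Ptprd and Csmd1.

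The change varied with the position in a gene. Along Auts2, which lies on the minus strand, 8 of the 10 bins wholly inside the gene fell, and the largest fall was not at the start site but in the gene's leading bin given above. That bin is centred 193 kb from the start site, and the bin centred 893 kb from it had 0.615 and 0.623, against 0.669, 0.699 and 0.622 in cortex. In that distal bin the libraries overlapped, and past the end of the gene, 1293 kb from the start site, the bulb libraries (0.733 and 0.739) lay above the cortex libraries (0.660, 0.657 and 0.645). In Meis2 the bin around the start site had 0.222 and 0.189 in olfactory bulb, while the next bin upstream, centred at -84.2 kb, had 0.754 and 0.723 against 0.750, 0.735 and 0.705 in cortex. The fall of Meis2 thus ended within 1 bin upstream, and it went on past the end of the gene, with 4 changed bins centred between 216 and 516 kb after the start site.

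Averaged over whole gene bodies, rises again outnumbered falls on the levels as deposited, but not after centring. Of 706 protein-coding genes with at least 2 bins wholly inside (median 3), 411 (58.2%) were higher in olfactory bulb and 64 (9.07%) lower, or 199 (28.2%) and 205 (29.0%) after centring. The libraries of the tissues did not overlap in 475 genes that were above (67.3%) and 82 that were below (11.6%), and the 3 conditions left 199 rises (28.2%) and 63 falls (8.92%). The median difference over all 706 genes was 0.0323, near that of all bins. With each gene's own spread the counts were 205 and 39, and the falls numbered 106 without cortex replicate 3, 42 without bulb replicate 1 and 34 without bulb replicate 2, and the rises 252 without bulb replicate 1.

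Of the 12 gene bodies with the largest falls, 11 are described here. Dscaml1, an adhesion molecule of the immunoglobulin superfamily, had 0.587, 0.574 and 0.578 in cortex and 0.472 and 0.468 in olfactory bulb and a log2 ratio change of -0.64 ± 0.0868 (SE, adjusted p = 4.11e-12). Cacna1c, the pore subunit of an L-type calcium channel, had 0.635, 0.639 and 0.620 in cortex and 0.534 and 0.511 in olfactory bulb over 5 bins, each of which passed the 3 conditions. The 11 genes fell by between 0.0923 and 0.110. They were, in order, Dscaml1, Cacna1c, Auts2, Sipa1l1, Synpr, Map2, Prkca, Zfp385b, Slc4a4, Maml3 and Adarb2, which include Synpr for a synaptic vesicle protein of interneurons, Map2 for the dendritic microtubule protein and Slc4a4 for a sodium bicarbonate cotransporter. Synpr had 0.711, 0.720 and 0.677 in cortex and 0.607 and 0.586 in olfactory bulb, above the mean over all bins in cortex and below it in olfactory bulb.

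Gabbr2 had the largest rise of a gene body, with 0.553, 0.540 and 0.538 in cortex and 0.713 and 0.707 in olfactory bulb and a change of 1.04 ± 0.0868 (SE, adjusted p = 1.91e-29). Slc24a2, for a potassium-dependent sodium/calcium exchanger, had 0.577, 0.553 and 0.563 in cortex and 0.726 and 0.732 in olfactory bulb. Mapk10, for the neuronal kinase JNK3, had 0.591, 0.603 and 0.584 in cortex and 0.740 and 0.738 in olfactory bulb. The levels of these genes in cortex were between 0.538 and 0.603, and the lowest bulb level was 0.707. The 12 rises lay between 0.133 and 0.166 and comprised Gabbr2, Slc24a2, Tjp1, Kctd16, Tmem178b, Mapk10, Xylt1, Arhgap26, Fam135b, Dst, Frmd5 and Cadm1, among which Tjp1 encodes a tight junction scaffold, Dst a cytoskeletal linker and Cadm1 a synaptic adhesion molecule. All bins inside these 12 genes passed the 3 conditions.

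Within each library, the gene body can be set against its flanks of 500 kb, which removes the shift of the library. Auts2 differed from its flanks by -0.0583 ± 0.00791 (SD, n = 3) in cortex and -0.188 ± 0.0139 (SD, n = 2) in olfactory bulb. Gabbr2 differed from its flanks by -0.0759 ± 0.0145 in cortex and by 0.0441 ± 0.00561 in olfactory bulb, so it was below its surroundings in one tissue and above them in the other. This contrast was lower in both bulb libraries than in every cortex library for all 63 falling genes and higher for 169 of the 199 rising genes, against 235 and 247 of all 706 genes. The falling and rising genes were chosen on the same body levels, so these counts describe them and give no separate support. The flanks of falling genes had a median difference of 0.0222 and those of rising genes 0.0371, against 0.0306 for all genes, while the genes themselves had medians of -0.0532 and 0.0720.

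Groups of genes were read in the bin that holds the largest part of each gene, beside a median difference of 0.0319 over all bins. Several genes of a group can share a bin, and a bin can hold other genes. Past the 3 conditions, 7.71% of all bins rose and 2.12% fell, and this is the background for the percentages of list members. The lists were drawn up with earlier results of these data known.

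Of 21 olfactory bulb interneuron genes in 19 bins, 11 genes in 9 bins fell (52.4% of the genes, against 2.12% of all bins), 0 rose and the others did not pass the 3 conditions, with a median difference of -0.0546. Besides Tshz1, Pbx3, Meis2 and the Dlx5 and Dlx6 bin given above, the bin of Dlx1 and Dlx2 had 0.429, 0.446 and 0.428 in cortex and 0.308 and 0.288 in olfactory bulb, lower in both bulb libraries. Gad1, for an enzyme that makes GABA, had 0.509 ± 0.0246 (SD, n = 3) in cortex and 0.402 ± 0.0342 (SD, n = 2) in olfactory bulb, and Etv1, a transcription factor of periglomerular cells, had 0.708 ± 0.0379 (SD, n = 3) in cortex and 0.608 ± 0.0115 (SD, n = 2) in olfactory bulb. Other members did not pass. Pax6 had 0.407, 0.449 and 0.380 in cortex and 0.447 and 0.394 in olfactory bulb, and Th, for the enzyme of dopamine synthesis, had 0.622, 0.635 and 0.585 in cortex and 0.587 and 0.637 in olfactory bulb, both with overlapping libraries. On the deposited levels alone, 3 genes of this list (among them Calb1 and Zic1) were higher at an adjusted p under 0.05 in limma, and the Calb1 bin had 0.691 ± 0.0307 in cortex and 0.747 ± 0.0117 in olfactory bulb. The 5 genes of mitral and tufted cells, the projection neurons of the bulb, had a median of 0.0369 with 1 rise in 5 (against 7.71% of all bins), that of Reln, which encodes the extracellular protein reelin (0.700 ± 0.0140 in cortex and 0.765 ± 0.00398 in olfactory bulb). Over the 4 bins inside Reln the difference was 0.0386 and did not pass.

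Of 20 cortical excitatory neuron genes, 8 rose (40.0%, against 7.71% of all bins) and 1 fell (5%, against 2.12%), with a median of 0.0559, and 4 were lower after centring. Cux2, a transcription factor of upper-layer neurons, had 0.580, 0.563 and 0.547 in cortex and 0.671 and 0.685 in olfactory bulb, and the change was 0.71 ± 0.118 (SE, adjusted p = 1.23e-06). Fezf2, of subcerebral projection neurons, had 0.487, 0.497 and 0.449 in cortex and 0.601 and 0.562 in olfactory bulb in a bin with 3 other protein-coding genes. These bins were higher in both bulb libraries, as was that of the corepressor gene Tle4 (0.503 ± 0.0203 in cortex and 0.606 ± 0.0163 in olfactory bulb). Bcl11b, also a factor of deep-layer neurons and expressed in many GABAergic neurons, was the 1 fall, with 0.509, 0.518 and 0.488 in cortex and 0.415 and 0.411 in olfactory bulb. Slc17a7, for the main glutamate transporter of cortical vesicles, had 0.414 ± 0.0269 in cortex and 0.449 ± 0.00795 in olfactory bulb in a bin shared by 11 protein-coding genes, and did not pass (adjusted p = 0.148).

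**Figure D4:**
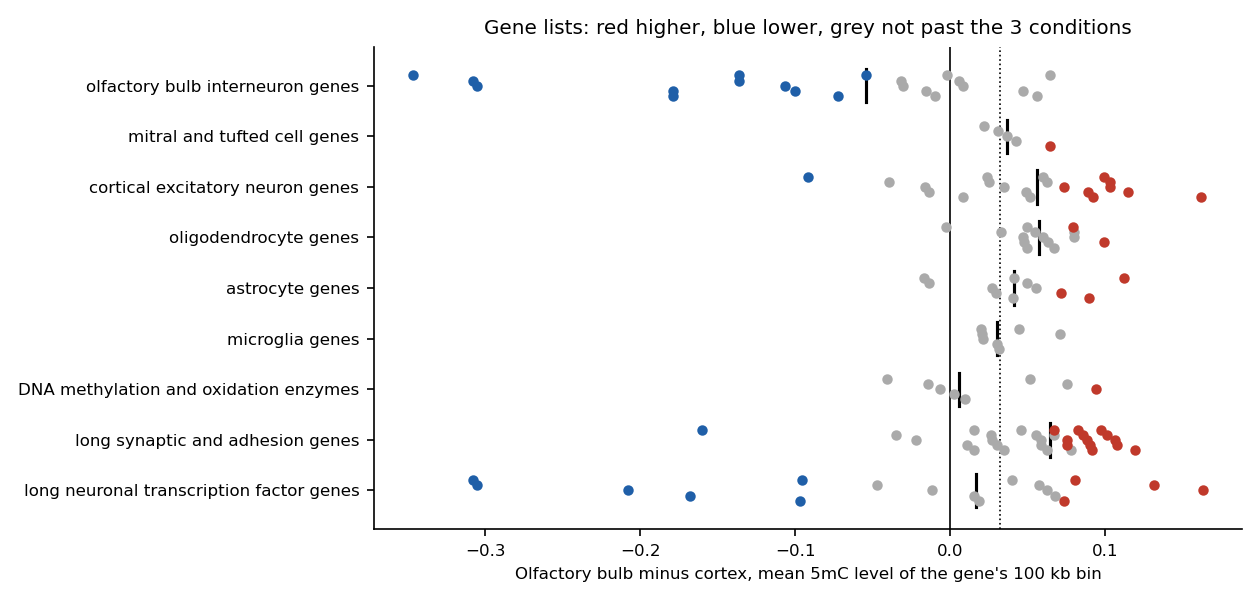
Olfactory bulb minus cortex in mean 5mC level of the bin with the largest part of each gene, 1 point per gene and 1 row per list, with bins past the 3 conditions in red (higher) or blue (lower) and the others in grey. The short black bars are list medians and the dotted line is the median of all bins (0.0319): the median of the interneuron genes is -0.0546, and those of the long synaptic and adhesion genes (0.0647), the oligodendrocyte genes (0.0572) and the cortical excitatory neuron genes (0.0559) are above the line.

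Of 14 oligodendrocyte genes in 13 bins, 2 rose (14.3%, against 7.71% of all bins) and 0 fell (median 0.0572), and 11 were higher on the deposited levels, as were 38.1% of all bins. Mbp, for myelin basic protein, had 0.556, 0.551 and 0.573 in cortex and 0.685 and 0.633 in olfactory bulb, and Tspan2 0.631, 0.605 and 0.607 in cortex and 0.692 and 0.695 in olfactory bulb. Of 11 astrocyte genes, 3 rose (27.3%, against 7.71% of all bins), 0 fell and 2 were lower after centring (median 0.0415), with the glutamate transporter gene Slc1a2 at 0.584, 0.599 and 0.528 in cortex and 0.681 and 0.683 in olfactory bulb, followed by Fgfr3 and S100b. Of 7 microglia genes, 0 rose or fell (median 0.0305), and 1 of the 7 passed in limma on the deposited levels alone. Tmem119, a surface marker of microglia, had 0.548, 0.594 and 0.575 in cortex and 0.630 and 0.603 in olfactory bulb (adjusted p = 0.0637). Among 8 genes of DNA methylation and oxidation, 1 rose (12.5%, near the 7.71% of all bins), 0 fell and 2 were lower after centring, with a median of 0.00597. The rise was that of Tdg, for a glycosylase that removes oxidized methylcytosine (0.522 ± 0.0216 in cortex and 0.616 ± 0.000768 in olfactory bulb). The Dnmt3a bin had 0.405, 0.457 and 0.413 in cortex and 0.420 and 0.401 in olfactory bulb. The Tet3 bin had 0.479 ± 0.0283 in cortex and 0.482 ± 0.0149 in olfactory bulb. On the deposited levels the adjusted p in limma was 0.560 for Dnmt3a and 0.926 for Tet3. After centring it was 0.0310 for Dnmt3a, 1 of the 2 lower genes, and 0.0943 for Tet3. On the deposited levels 3 of the 8 genes were higher and 0 lower, against 38.1% and 2.19% of all bins.

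Long genes went both ways. Of 30 long synaptic and adhesion genes, 13 rose (43.3%, against 7.71% of all bins) and 1 fell (3.33%, against 2.12%) in the bin read, with a median of 0.0647. The bins read lie wholly inside these genes, where differences were more common in both directions. After centring, 16.2% of bins wholly covered by protein-coding genes were higher and 16.7% lower, against 7.71% and 9.24% of all bins. In the list, 13 of the 30 were higher and 3 lower after centring. Over all bins inside the 30 genes, 20 rose (66.7%, against 28.2% of all gene bodies) and 2 fell (6.67%, against 8.92%). Nrxn3, for a presynaptic neurexin, was the 1 fall, with 0.633, 0.626 and 0.641 in cortex and 0.480 and 0.466 in olfactory bulb. Nrxn3 also held stretches of 6 and 7 falling bins, with means of 0.629 ± 0.00187 against 0.515 ± 0.00805 and of 0.660 ± 0.0121 against 0.607 ± 0.00286. The second fall over a gene body was that of Dpp6, a subunit of potassium channels (-0.0316). Of 18 long neuronal transcription factor genes, 4 rose (22.2%, against 7.71% of all bins) and 6 fell (33.3%, against 2.12%), with a median of 0.0169, the falls including Pbx3, Meis2, Meis1, Zeb2 and Bcl11a. After centring, 4 of the 18 were higher and 8 lower, to be read beside the same shares of bins covered by protein-coding genes. Foxp1 had 0.544, 0.538 and 0.540 in cortex and 0.717 and 0.690 in olfactory bulb and Nfia 0.500, 0.506 and 0.480 in cortex and 0.614 and 0.640 in olfactory bulb, the 2 larger rises of that list.

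5hmC was measured by TAB-seq in other libraries (3 per tissue) and is read here in bins of 1 Mb. These hold 10 of the 100 kb bins, so a 1 Mb value includes DNA that did not change in 5mC. Of 2413 autosomal 1 Mb bins, 80 (3.32%) were higher and 1568 (65.0%) lower in olfactory bulb, or 846 (35.1%) and 922 (38.2%) after centring on the library medians. In the 1 Mb bins of the 12 rising loci, 12 of 12 were lower in 5hmC and 0 higher, and 7 of 12 after centring. The Ptprd bin had 0.244 ± 0.0155 in cortex and 0.164 ± 0.00579 in olfactory bulb (SD, n = 3 each, adjusted p = 5.84e-19), and the Xylt1 bin 0.215 ± 0.00842 and 0.153 ± 0.00368. In those of the 12 falling loci, 5 were higher (Meis2, Auts2, Dlx6, Zfp385b and Meis1) and 1 lower (Pcbp3), and after centring 11 were higher and 0 lower. The Meis2 bin had 0.194 ± 0.0106 in cortex and 0.239 ± 0.00704 in olfactory bulb (adjusted p = 1.33e-06), whereas the Tshz1 bin had 0.211 ± 0.0133 and 0.220 ± 0.00619 (adjusted p = 0.365). With the TAB-seq replicate numbers as a block, 136 bins were higher and 1845 lower in all, and 4 in place of 1 of the 12 falling loci were lower. The 80 higher bins became 51, 155 and 52 without cortex TAB-seq replicate 1, 2 and 3 and 53 without bulb TAB-seq replicate 2, and the 1 lower falling locus became 4 without cortex replicate 3 and 0 without cortex replicate 1, bulb replicate 1 or bulb replicate 3. Across the 1 Mb bins the differences of both modifications ran in opposite directions, with r = -0.692 and rho = -0.646 over 2413 bins, given as a description since neighbouring bins are not independent. The median difference was 0.0319 for 5mC and -0.0207 for 5hmC.

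**Figure D5:**
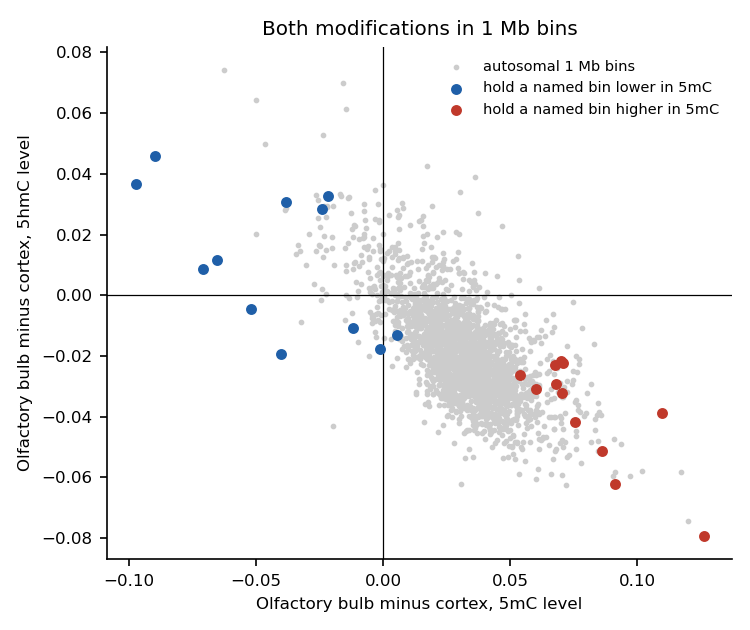
Olfactory bulb minus cortex in mean 5hmC level against the same difference in 5mC level, 1 point per autosomal 1 Mb bin (grey), with the bins that hold a named falling bin in blue and a named rising bin in red. The cloud slopes downward (r = -0.692), the 12 red points have 5hmC differences below 0, and 7 of the 12 blue points lie above 0.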

How the data were processed

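Genomic DNA of cortex (3 libraries), olfactory bulb (2) and cerebellum (2) was profiled by oxBS-seq, and 5hmC by TAB-seq (3 libraries per tissue). Per the study's methods, the authors mapped reads uniquely to mm10 with Bismark, whose version is not given in the sources used here, and took the level of a CpG site as the share of reads with C. The deposited values are a fraction between 0 and 1 per bin and library. How sites were combined into bins is not stated and no read counts are given, so depth is unknown, and no interval or detection floor could be given.

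Autosomal 100 kb bins above 0 and below 1 in all 5 libraries were transformed to log2(level/(1 − level)) and compared with limma 3.58.1 (R 4.3.3) without a block, with Benjamini-Hochberg adjustment over all bins and a threshold of 0.05, also after centring each library on its median. Gene bodies (GENCODE release M21) were means over at least 2 bins wholly inside. Single values were compared by two-sided exact permutation tests. Scripts were tested on simulated data.

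Named loci were the 12 largest rises and falls in mean level past the 3 conditions, with bins within 500 kb or in the same gene joined to the leading bin, and named genes the 12 largest among gene bodies. The members and lists were chosen with earlier results of these data known. Examples of a list were up to 4 members with the largest difference, and other members, and the bins along Auts2 and Meis2, were chosen after their values were seen.

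Alternatives were the fraction scale, 7 libraries, trended, robust or unshared variance, the replicate block, other filters on bins, 1 Mb bins, X, and leaving out each library. For TAB-seq, deviations of same-numbered libraries correlated with r = 0.128, 0.297 and 0.216. Differently numbered libraries were not compared, so these values cannot tell whether the numbers in the labels pair these samples. The adjusted p-values given for TAB-seq come from the fit without the replicate block. RNA was not analysed here, and a few genes that the rule or lists include are not reported here.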

Additional observations from a re-analysis of the deposited data

How the results depend on the processing

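The deposited levels carry no counts, so what depth limits cannot be measured. The 9157 higher bins became 1851 after centring, 34 with each bin's own variance and 1554 at 1 Mb. The 525 lower bins became 2218, 4 and 19, and 870 under the replicate block of the labels. Of gene bodies, 411 higher became 199 after centring and 205 with own variance, and 64 lower became 205, 39 and, under the replicate block of the labels, 102. After centring, own variance left 59 higher and 127 lower bins. The 5hmC counts of 80 and 1568 became 846 and 922 after centring, and the replicate block raised the 80 to 136. Settings with fewer bins or samples lower the power by construction, and for the others the cause was not tested.

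Leaving out 1 library at a time gave a mean difference of 0.0225 to 0.0358, 2428 to 9414 higher and 196 to 877 lower bins, and 945 to 1700 and 1263 to 2022 after centring. Gene bodies ranged from 252 to 438 higher and 34 to 106 lower, and from 136 to 204 and 155 to 208 after centring. For 5hmC the ranges were 51 to 155 and 1262 to 1808. The relative contrasts ranged from 0.000721 to 0.00614 for bins without a gene, from -0.00219 to -0.000531 under 50% covered, from -0.00245 to 0.00159 between 50% and 100%, where the sign reversed without cortex replicate 2 (0.000372) and without bulb replicate 2 (0.00159), and from 0.000401 to 0.00167 at full cover.

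Whether the oxBS-seq numbers pair these samples cannot be told. Deviations of same-numbered libraries correlated with r = -0.102 and -0.0777 by the labels and 0.0777 and -0.00561 by the library names, and only 2 numbers are shared. With 2 bulb libraries the deviations of one mirror those of the other, so -0.0777 and 0.0777 are the same value with the sign turned. The replicate block gave a mean difference of 0.0225 by the labels and 0.0346 by the names (exact permutation p = 0.5, the smallest for 2 pairs), with 8078 higher and 870 lower bins by the labels and 8662 and 400 by the names. Of 408 values of the named bins over the alternatives, 378 kept direction and side of the threshold, 29 lost the call (24 with own variance, 4 at 1 Mb for Dlx6, Prkca, Ppm1e and Meis1, and Gm21093 with limma's robust option), and Fam171b reversed at 1 Mb to 0.0367 on the log2 scale (adjusted p = 0.688). Of 312 values of named gene bodies, 311 kept both and Slc4a4 lost the call with own variance.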
